A study of Mus musculus with 11 samples.

Results

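The IFIT genes, the IFI44 pair, Ifi27 and Ifi35 were followed in splenic natural killer (NK) cells that did or did not carry lactate dehydrogenase A (LDHA). The group holds 9 of the 24421 genes in the count table: Ifit1, Ifit1bl1, Ifit2, Ifit3 and Ifit3b of the IFIT family, Ifi44 and Ifi44l of the IFI44 family, and Ifi27 and Ifi35. They were chosen by family and known function, by matching Entrez identifiers to current mouse symbols; the rule names no measured value, but it was written with earlier results of these data known. Of the 9 genes, 8 passed the filter on low counts and were tested among 13711 genes, and Ifi44l did not. The symbol Ifi27 is also listed as an older name of Ifi27l2a, and the gene reported here as Ifi27 is the one that carries it as its current symbol.

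Ly49H is an activating receptor on NK cells that recognises a glycoprotein of mouse cytomegalovirus (MCMV), and LDHA converts pyruvate to lactate at the end of glycolysis. The 11 libraries are 3 KO D2 (LDHA-deficient, CD45.2), 3 WT D2 (wild type, CD45.1), 3 KO D0 and 2 WT D0, all from C57BL/6 mixed bone marrow chimeras treated with MCMV in vivo. Cells were sorted from spleen as TCRb- CD3e- NK1.1+ DX5+ Ly49H+, and each library is described as 1 mouse. D0 and D2 are terms of the sample titles: the label for days after infection reads day 2 in all 11 libraries, so whether the D0 cells were infected remains unknown. Libraries titled WT carry a genotype label that lists both genotypes, and here the title was followed. The deletion strategy, the cells in which Ldha was deleted and the age of the mice were not given in the sources used here. Nothing states whether KO and WT cells with the same replicate number came from 1 chimera.

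Viral infection makes many cells release type I interferon, which binds the receptor formed by IFNAR1 and IFNAR2 and signals through the kinases JAK1 and TYK2 to a complex of transcription factors that includes STAT2 and IRF9. This complex binds interferon-stimulated response elements near many genes, among them those described here. IFIT proteins bind foreign RNA and block its translation, and NK cells are early responders to type I interferon in MCMV infection.

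Library totals lay between 19452460 and 27992092 counts. A floor of detection of 3 counts equals 0.107 to 0.154 CPM, which are counts scaled to an equal library total, and covers counting error only. Ldha averaged 109.6 ± 7.17 CPM in KO D2 and 2903 ± 179 CPM in WT D2, and 99.4 ± 7.16 CPM in KO D0 and 609.5 ± 66.2 CPM in WT D0 (SD, n = 3, 3, 3 and 2), in accord with the genotype in each title. D2 and D0 libraries separated on the first principal component (71.2% of the variance). Summed NK cell markers reached 9788 to 18300 CPM. The lists for other cell types were lower: 7 T cell markers summed to 23.4 to 53.9 CPM at D2 and 55.5 to 80.2 CPM at D0, 5 B cell markers to 4.03 to 9.28 CPM, and 7 monocyte or macrophage markers to 14.0 to 21.0 CPM at D2 and 24.4 to 64.0 CPM at D0. Pax5, of the B cell list, was at 0 in KO D2 and WT D2, and Klk1, of the plasmacytoid dendritic cell list, in WT D2. The 6 markers of conventional dendritic cells, mostly Itgax, which NK cells also express, summed to 237.7 to 354.4 CPM at D2 and 660.0 to 785.4 CPM at D0, and the 4 erythroid markers to 27.6 to 244.7 CPM at D2 and 77.6 to 703.1 CPM at D0. The 5 markers of plasmacytoid dendritic cells summed to 532 to 748.4 CPM at D2 and 78.1 to 94.1 CPM at D0, mostly Bst2, which interferon also induces. The part of other cells in the results was not tested. In bulk RNA, more RNA per cell and more cells with that RNA cannot be told apart.

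The 5 IFIT genes lie within 112.4 kb of chromosome 19 (GRCm38.p6, the mm10 build). In RefSeq, Ifit2 spans chr19:34550550-34576534, Ifit3 chr19:34583119-34588982, Ifit3b chr19:34607530-34613403 and Ifit1 chr19:34640889-34650009, all on the plus strand. Ifit1bl1 is annotated on the minus strand over chr19:34592888-34662981, a span that contains Ifit3b, Ifit1bl2 and Ifit1 but shares 0 exon bases with them in the GENCODE annotation. Ifi44 (chr3:151730922-151749910) and Ifi44l (chr3:151758737-151762891) are neighbours on the minus strand of chromosome 3, 8827 bases apart. Ifi35 lies on the plus strand at chr11:101448412-101458701, 47 bases from Vat1. Ifi27 lies on the plus strand at chr12:103434189-103440245 and overlaps Ifi27l2a on the opposite strand, again with 0 shared exon bases. The cDNA kit does not mark strand, so reads from any transcribed sequence that such a pair shares outside these annotated exons could not be assigned by strand.

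The 250 bases upstream of the transcript starts in RefSeq, which can lie inside the gene spans above, were searched for the core letters of the interferon-stimulated response element, GAAANNGAAA on either strand (TTTCNNTTTC on the other). This pattern occurs in 2.98% of 32851 such windows in RefSeq and in at least 1 window of 936 of 27025 genes, which is 3.46%. It was found upstream of Ifit1, Ifit3, Ifit3b and Ifit1bl1, and the stretches around the matches are shown because the genes that carry them ranged from strong to weak change between D0 and D2. Capitals mark the matches, and each stretch is read along the strand of its gene.
Ifit1, chr19:34640770-34640828, plus strand: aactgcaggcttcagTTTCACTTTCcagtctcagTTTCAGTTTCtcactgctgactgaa
Ifit3, chr19:34583358-34583431, plus strand: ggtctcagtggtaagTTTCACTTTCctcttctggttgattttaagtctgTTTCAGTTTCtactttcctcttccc
Ifit1bl1, chr19:34602048-34602087, minus strand: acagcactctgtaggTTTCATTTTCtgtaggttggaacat
Ifit1 and Ifit3 each hold 2 matches, which begin 104 and 85 bases before the start in Ifit1 and 156 and 122 bases before it in Ifit3. The Ifit3b stretch (chr19:34607754-34607827) has the same letters as that of Ifit3, and the upstream sequences of the pair are 99.5% identical over 218 bases. Ifit1bl1 holds 1 match upstream of each of 2 annotated starts. The Ifit1 stretch is also the upstream stretch of Ifit1bl2, a neighbour on the minus strand with its annotated end 62 bases from Ifit1. The exact letters were not found upstream of Ifi44, Ifi44l, Ifi35 or Ifit2 in these windows, which says nothing about binding of the complex there. Ifi27 was not searched.

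**Figure D1:**
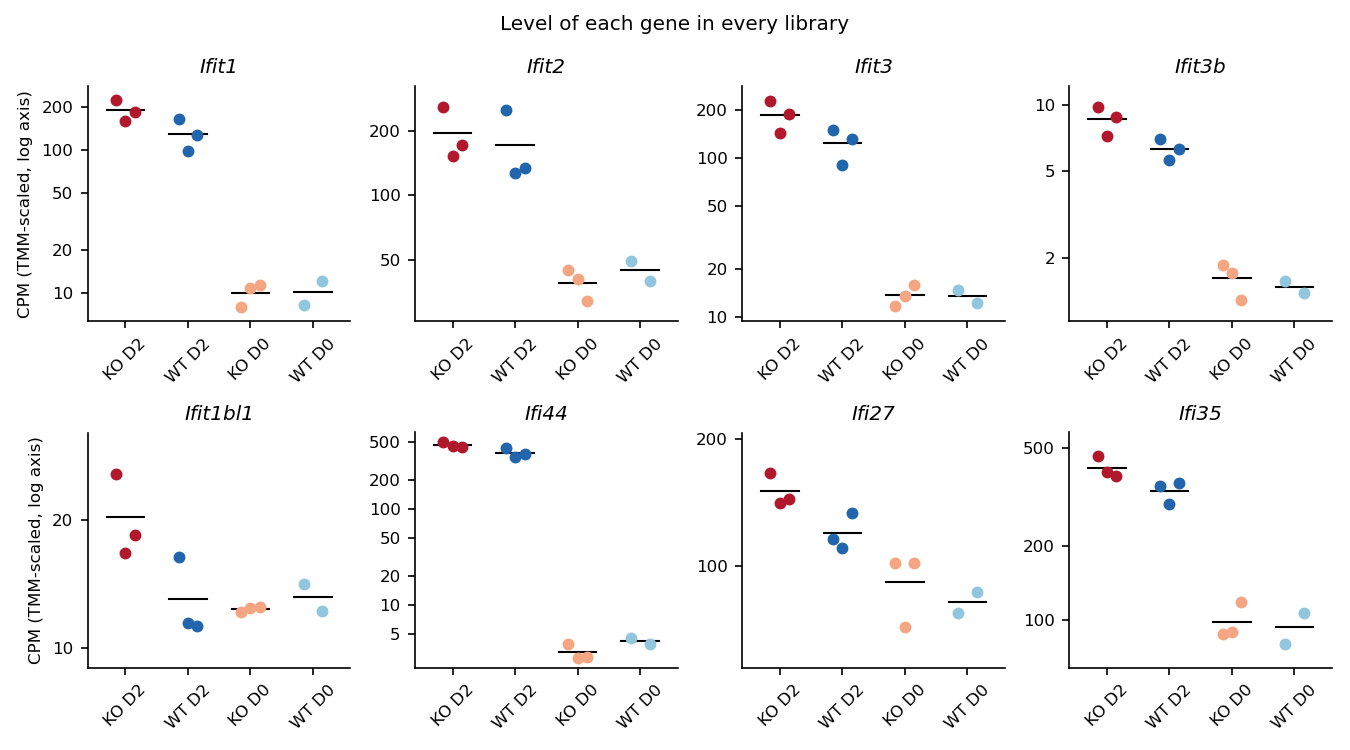
CPM (log axis, TMM-scaled) of the 8 tested genes in each library, with 1 point per library and a line at the group mean, for KO D2, WT D2, KO D0 and WT D0. Ifi44 lies between 347.0 and 505.8 CPM in the D2 libraries and between 2.76 and 4.49 CPM in the D0 libraries, whereas the Ifit1bl1 libraries of both days lie between 11.2 and 25.6 CPM.

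D2 against D0 asks how these genes differed between the title days within each genotype. All 8 tested genes were higher at D2 in KO cells and 7 of 8 in WT cells (edgeR's quasi-likelihood test, Benjamini-Hochberg adjusted p under 0.05). The exception was Ifit1bl1 in WT cells. Across all tested genes, 27% were called higher and 34.5% lower in KO cells, and 27.5% higher and 26% lower in WT cells. The median log2 fold change of the 8 genes was 2.36 in KO cells and 2.02 in WT cells, beside medians of -0.20 and -0.07 over all tested genes. The filter keeps genes that are high in either group, so these counts leave out Ifi44l.

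Ifit1, which binds the leading end of RNA without the cap methylation of host messages, measured 223.8, 159.8 and 183.9 CPM in KO D2 and 7.94, 10.8 and 11.4 CPM in KO D0. In WT cells it measured 163.8, 98.5 and 126.6 CPM at D2 and 8.24 and 12.1 CPM at D0. No D2 library came near a D0 library in either genotype. The log2 fold change was 4.23 (SE 0.24, adjusted p = 2.8e-08 by edgeR) in KO cells and 3.67 (SE 0.28, adjusted p = 3.2e-07) in WT cells, or 18.8-fold and 12.7-fold.

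Ifit3, whose human counterpart binds IFIT1 and strengthens its hold on RNA, measured 226.6, 143.4 and 187.8 CPM in KO D2 and 11.7, 13.4 and 15.7 CPM in KO D0. Its WT values were 150.6, 90.5 and 131.4 CPM at D2 and 14.7 and 12.2 CPM at D0. The days were again fully apart, and the change was close in size to that of Ifit1: log2 3.77 (SE 0.23, adjusted p = 4.2e-08 by edgeR) in KO cells and 3.20 (SE 0.26, adjusted p = 6e-07) in WT cells.

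Ifit3b is a near copy of Ifit3, and the transcripts are 98% identical over 1697 aligned bases, so counting may have split reads between the pair unevenly. Ifit3b measured 9.77, 7.20 and 8.82 CPM in KO D2 and 1.87, 1.71 and 1.29 CPM in KO D0. WT libraries had 7.02, 5.61 and 6.30 CPM at D2 and 1.58 and 1.39 CPM at D0. Its days did not overlap, but its change was smaller than that of its copy, log2 2.39 (adjusted p = 1.4e-06 by edgeR) in KO cells and 2.08 (adjusted p = 2.1e-05) in WT cells. Its counts equalled 4.31% to 6.20% of the Ifit3 counts in D2 libraries and 8.24% to 16.03% in D0 libraries. Whether the shared letters account for the unequal change was not tested.

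Ifit2, an RNA-binding IFIT that protects mice from several neurotropic viruses, measured 261.2, 153.0 and 172.1 CPM in KO D2 and 44.5, 40.3 and 32.1 CPM in KO D0. Its WT values were 252.8, 127.8 and 135.1 CPM at D2 and 49.3 and 39.7 CPM at D0. Its level per kilobase at D0 was the highest of the 5 IFIT genes, 10.2 CPM per kb in KO D0 and 11.7 CPM per kb in WT D0. It rose by log2 2.33 (SE 0.27, adjusted p = 1e-05 by edgeR) in KO cells and 1.95 (SE 0.31, adjusted p = 0.00018) in WT cells. Replicate 1 was the highest D2 library of each genotype, and it was well apart from the other two.

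Ifit1bl1, an Ifit1-like gene whose transcript is 91.6% identical to that of Ifit1bl2 over the aligned bases and 81.2% to that of Ifit1, changed little. It measured 25.6, 16.7 and 18.4 CPM in KO D2 and 12.1, 12.4 and 12.5 CPM in KO D0. WT libraries had 16.3, 11.5 and 11.2 CPM at D2 and 14.2 and 12.2 CPM at D0. KO D2 libraries were all above KO D0 libraries, while the WT days overlapped. The log2 fold change was 0.71 (SE 0.20, adjusted p = 0.0073 by edgeR) in KO cells and -0.02 (SE 0.22, adjusted p = 0.94) in WT cells. Without KO D2 replicate 1 the KO change was 0.45 and no longer called (adjusted p = 0.068 by edgeR). Ifit1bl2, which shares its upstream stretch with Ifit1, was low throughout, at 2.61, 3.08 and 1.95 CPM in KO D2 and 0.74 to 1.12 CPM in KO D0. Its log2 fold changes were 1.38 (adjusted p = 0.0022 by edgeR) in KO cells and 1.10 (adjusted p = 0.022) in WT cells.

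Ifi44, an interferon-induced protein with antiviral activity reported in several infections, had the largest change of the 8 genes in both genotypes. It measured 505.8, 455.8 and 448.9 CPM in KO D2 and 3.93, 2.76 and 2.86 CPM in KO D0. Values in WT cells were 439.7, 347.0 and 373.7 CPM at D2 and 4.49 and 3.86 CPM at D0. The D0 values rest on 62 to 139 counts per library, far above the floor. The log2 fold change was 7.20 (SE 0.18, adjusted p = 1.2e-10 by edgeR) in KO cells and 6.53 (SE 0.21, adjusted p = 1.1e-09) in WT cells, or 147.2-fold and 92.5-fold, and it ranked 15th and 22nd of the 13711 tested genes. Its neighbour and family member Ifi44l was at 0 counts in all 6 D2 libraries, had 2, 0 and 2 counts in KO D0 and 1 and 0 counts in WT D0, and so lay at or under the floor of 3 counts in every library. No fold change is given for it.

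Ifi35, a leucine zipper protein that partners with NMI, was far above the floor at both days. It measured 464.3, 400.5 and 386.9 CPM in KO D2 and 87.7, 89.0 and 118.5 CPM in KO D0. WT libraries had 351.8, 296.2 and 361.9 CPM at D2 and 79.7 and 106.9 CPM at D0. Its days did not overlap, and it rose by log2 2.08 (SE 0.16, adjusted p = 2.5e-07 by edgeR) in KO cells and 1.85 (SE 0.18, adjusted p = 3e-06) in WT cells. Vat1, which begins 47 bases away, rose by 0.96 (adjusted p = 0.00033 by edgeR) in KO cells and 0.52 (adjusted p = 0.036) in WT cells.

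Ifi27, of a family of small interferon-inducible membrane proteins, had the smallest change of the genes called in both genotypes. It measured 165.7, 140.8 and 144.3 CPM in KO D2 and 101.8, 72.0 and 102.0 CPM in KO D0. In WT cells it measured 116.2, 110.2 and 133.4 CPM at D2 and 77.7 and 86.8 CPM at D0. The days did not overlap in either genotype, but the gap was narrow: log2 0.71 (SE 0.15, adjusted p = 0.00097 by edgeR) in KO cells and 0.54 (SE 0.17, adjusted p = 0.014) in WT cells. The WT call was lost without WT D0 replicate 2 (0.40, adjusted p = 0.15 by edgeR) and without WT D2 replicate 3 (0.40, adjusted p = 0.092). Its overlapping relative Ifi27l2a behaved very differently, with 193.6, 121.6 and 83.8 CPM in KO D2 and 1.12 to 2.17 CPM in KO D0, and with 167.8, 97.4 and 128.2 CPM in WT D2 and 1.39 and 1.65 CPM in WT D0. Its log2 fold change was 6.42 in KO cells and 6.43 in WT cells. Ifi27l2b, the third gene of that locus, had 0 to 3 counts per library.

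**Figure D2:**
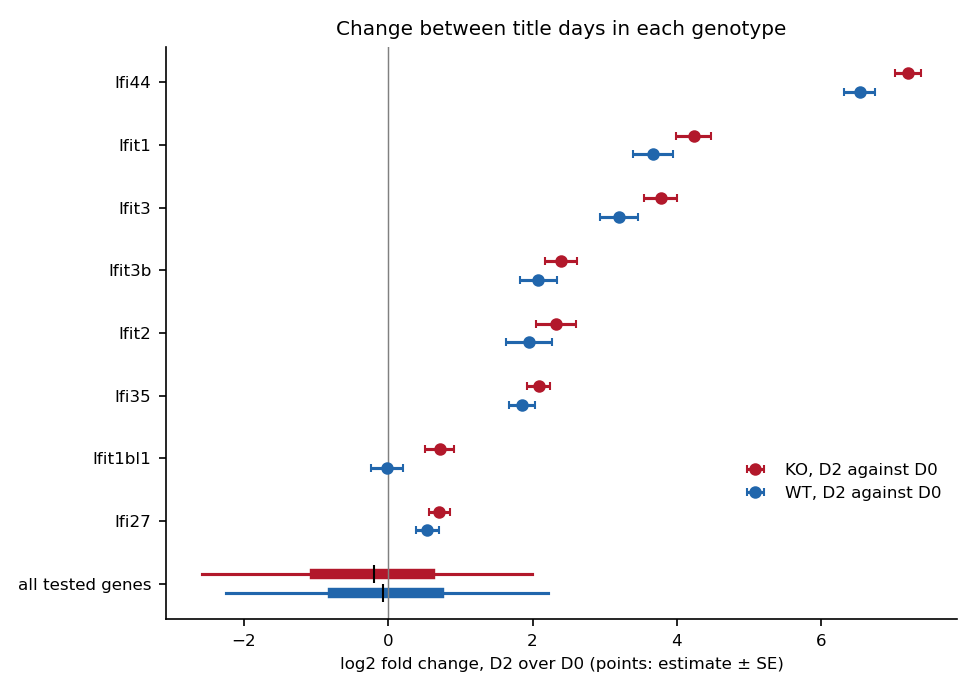
log2 fold change of D2 over D0 (x axis) for each tested gene, with 1 point per genotype (KO above WT) and bars of 1 SE, above the spread of all 13711 tested genes (thin line 5th to 95th percentile, thick line quartiles, tick median). Ifi44 lies at 7.20 in KO cells and 6.53 in WT cells, while the 95th percentile of all tested genes is 2.00 in KO cells and 2.21 in WT cells.

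Per kilobase of transcript, the order of the genes differed between the days. In KO D2 the level was 306.3 ± 30.4 CPM per kb for Ifi35, 161.6 ± 10.7 for Ifi44, 153.8 ± 13.8 for Ifi27, 106.6 ± 23.9 for Ifit3, 71.2 ± 12.2 for Ifit1 and 51.2 ± 15.1 for Ifit2 (SD, n = 3). WT D2 cells had the same order, at 247.2 ± 26.0, 132.9 ± 16.4, 122.7 ± 12.3, 71.2 ± 17.6, 48.8 ± 12.3 and 45.03 ± 18.4 CPM per kb (SD, n = 3). At D2 the spreads (mean ± SD) overlapped in both genotypes for Ifi44 and Ifi27, for Ifit3 and Ifit1, and for Ifit1 and Ifit2. Ifit1bl1 and Ifit3b were far lower, at 9.21 and 4.30 CPM per kb in KO D2 and 5.91 and 3.16 in WT D2. In KO D0 Ifi27 led with 94.1 ± 17.7 CPM per kb, followed by Ifi35 with 72.2 ± 12.8 and Ifit2 with 10.2 ± 1.65 (SD, n = 3). In WT D0 these genes had 84.2 ± 6.57, 68.5 ± 14.1 and 11.7 ± 1.77 CPM per kb (SD, n = 2). The spreads of Ifi27 and Ifi35 overlapped in both D0 groups. Ifi44 was near the bottom of the D0 order, at 1.09 CPM per kb in KO D0 and 1.44 in WT D0. Of the per-kilobase sum over the 9 genes, Ifi44 made up 17.7% to 20.6% in the D2 libraries and 0.446% to 0.901% in the D0 libraries, and Ifi27 made up 15.8% to 19.6% in the D2 libraries and 43.6% to 52.7% in the D0 libraries.

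**Figure D3:**
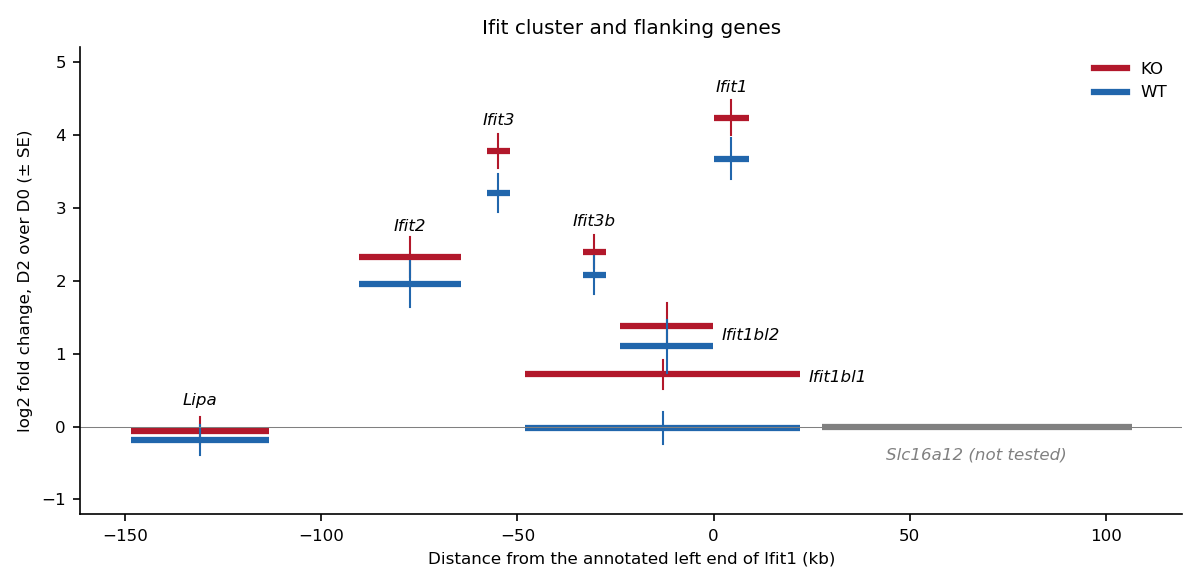
log2 fold change of D2 over D0 (y axis, vertical bars 1 SE) for genes of the Ifit cluster, drawn over their annotated span as distance from the left end of Ifit1 in kb, in KO and WT cells. Lipa, left of the cluster, lies at -0.06 in KO cells and -0.18 in WT cells, and Ifit1 at 4.23 and 3.67; the grey Slc16a12 was not tested and its place on the y axis carries no value.

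The plot of the Ifit cluster shows that high and low changes alternate over short distances. Ifit3 and Ifit1, 51.9 kb apart, had the largest changes, and Ifit1bl1, whose annotated span covers Ifit1, the smallest. The gene left of the cluster, Lipa, which encodes the lysosomal acid lipase, was not called (-0.06, adjusted p = 0.8 by edgeR, in KO cells and -0.18, adjusted p = 0.48, in WT cells). Slc16a12, on the right, averaged 0.117 CPM in KO D2 and 0.094 CPM in WT D2 and was not tested. Adgrl4, the nearest named gene on the other side of Ifi44, fell by 1.42 (adjusted p = 1.8e-05 by edgeR) in KO cells and by 1.92 (adjusted p = 4.2e-06) in WT cells. Next to Ifi27, the helicase gene Ddx24 rose by 1.80 and 1.74, and next to Ifi35 the ribosomal protein gene Rpl27 rose by 1.09 and 1.33 on the log2 scale in KO and WT cells.

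KO against WT at D2 asks whether loss of LDHA changed the level of these genes at the later title day. All 8 tested genes were higher in KO D2 than in WT D2 by the fitted estimate, by log2 0.19 to 0.64. By that estimate 51.2% of all tested genes were higher. Of the 8, only Ifit1bl1 was called (edgeR, adjusted p = 0.045). Among all tested genes 1.61% were called higher and 14.5% lower. The median of the 8 genes was 0.39 and that of all tested genes 0.01. In 5 of the 8 genes (Ifit3b, Ifit1bl1, Ifi44, Ifi27 and Ifi35) every KO D2 library was above every WT D2 library, which held for 12.4% of all tested genes. KO exceeded WT in 3 of 3 same-number pairs for all 8 genes, which held for 26.3% of all tested genes. The conventional dendritic cell markers summed to 292.2 to 354.4 CPM in KO D2 and 237.7 to 249.0 CPM in WT D2, and the other lists overlapped between the genotypes except that of plasmacytoid dendritic cells (695.0 to 748.4 CPM and 532.0 to 619.3 CPM in KO D2 and WT D2); their part in these differences was not tested.

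The samples of the same replicate number at D2 deviated together from their group means (correlations of 0.217, 0.198 and 0.114 over genes). For this reason, found in the same data, the fit with the replicate number as a block is given beside the unblocked one. KO D0 and WT D2 samples of the same number correlated at 0.218, 0.152 and 0.201, so these values do not show that a D2 pair shared a chimera. With the block within day, 6 of the 8 genes were called higher in KO D2, beside 6.56% of all tested genes. With the block across days 3 of the 8 were called, where 442 of the 13711 tested genes were called higher. A further fit had that block and an offset for each library's trend against GC content (given further on). It called 1 of the 8 (Ifit1bl1, adjusted p = 0.047 by edgeR), where 1077 of all tested genes were called higher. Ifit1 differed by log2 0.55 (SE 0.21, adjusted p = 0.11 by edgeR) without the block and by 0.56 (SE 0.10, adjusted p = 0.0017) with it. Ifit3 differed by 0.58 (SE 0.20, adjusted p = 0.074 by edgeR) without the block and by 0.59 (SE 0.10, adjusted p = 0.0012) with it. The same-number KO over WT ratios were 1.37, 1.62 and 1.45 for Ifit1 and 1.51, 1.58 and 1.43 for Ifit3. Each pair thus had KO above WT for both genes, while the libraries of the 2 groups overlapped when the numbers were ignored.

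Ifi44, Ifi35 and Ifi27 showed smaller differences. Ifi44 was at 470.2 ± 31.1 CPM in KO D2 and 386.8 ± 47.7 CPM in WT D2 (SD, n = 3 each), a log2 difference of 0.28 (adjusted p = 0.22 by edgeR) without the block and 0.29 (adjusted p = 0.018) with it. Ifi35 was at 417.2 ± 41.4 CPM in KO D2 and 336.6 ± 35.4 CPM in WT D2 (SD, n = 3 each), a log2 difference of 0.31 in both fits (adjusted p = 0.23 by edgeR without the block and 0.019 with it). Ifi27 was at 150.2 ± 13.5 CPM in KO D2 and 119.9 ± 12.1 CPM in WT D2 (SD, n = 3 each), a log2 difference of 0.33 in both fits (adjusted p = 0.18 by edgeR without the block and 0.037 with it). The block narrowed the error and left the estimates in place.

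Ifit2 and Ifit3b were called in neither fit. Ifit2 averaged 195.4 ± 57.7 CPM in KO D2 and 171.9 ± 70.2 CPM in WT D2 (SD, n = 3 each), a log2 difference of 0.19 (adjusted p = 0.75 by edgeR) without the block and 0.22 (adjusted p = 0.086) with it. Its value in replicate 1 was nearly equal in the genotypes, 261.2 CPM in KO D2 and 252.8 CPM in WT D2. Ifit3b averaged 8.60 ± 1.30 CPM in KO D2 and 6.31 ± 0.71 CPM in WT D2 (SD, n = 3 each), a log2 difference of 0.45 (adjusted p = 0.20 by edgeR) without the block and 0.44 (adjusted p = 0.091) with it. Ifi27l2a, the strongly changing relative of Ifi27, averaged 133.0 ± 55.8 CPM in KO D2 and 131.1 ± 35.3 CPM in WT D2 (SD, n = 3 each).

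Ifit1bl1 averaged 20.3 ± 4.73 CPM in KO D2 and 13.0 ± 2.89 CPM in WT D2 (SD, n = 3 each), a log2 difference of 0.64 (SE 0.20). Its lowest KO D2 library, 16.7 CPM, lay just above its highest WT D2 library, 16.3 CPM. The call rested on individual libraries. It was lost without KO D2 replicate 1 (0.42, adjusted p = 0.25 by edgeR), without KO D2 replicate 3 (adjusted p = 0.075), without WT D2 replicate 2 (adjusted p = 0.17) and without WT D2 replicate 3 (adjusted p = 0.18). It was also lost without KO D0 replicate 2 (0.632, adjusted p = 0.068 by edgeR). Without WT D0 replicate 2 or replicate 3 the difference was 0.631 each. The D0 libraries enter this comparison through the filter on low counts, the scaling and the shared estimate of spread. With the block within day the adjusted p of Ifit1bl1 was 0.0034 by edgeR.

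**Figure D4:**
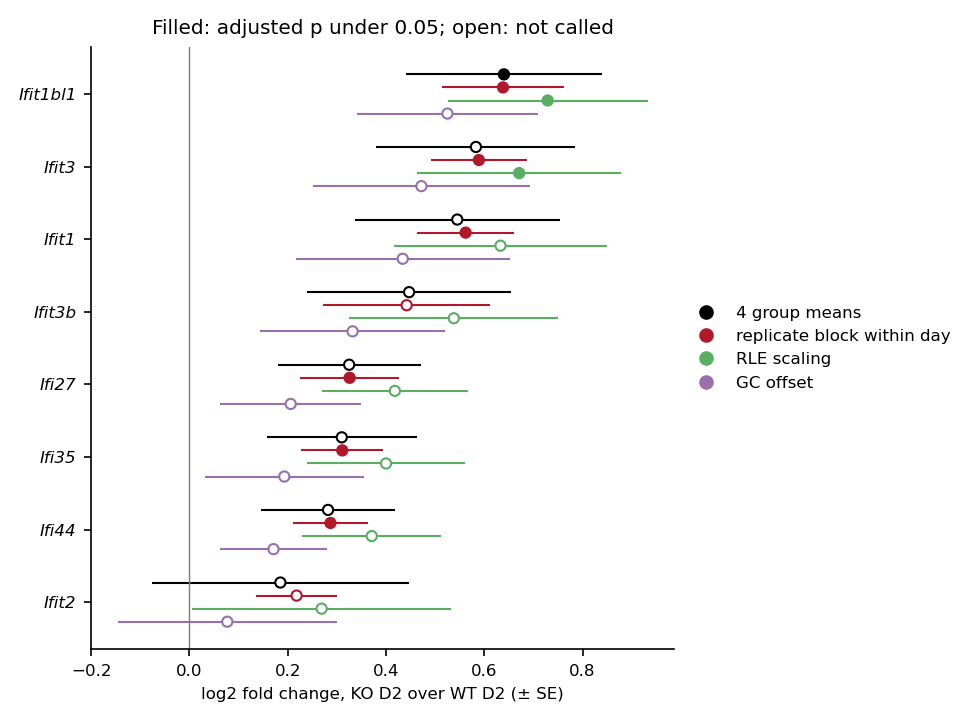
log2 fold change of KO D2 over WT D2 (x axis, bars 1 SE) for the 8 tested genes in 4 fits: the group means alone, with the replicate block within day, with RLE scaling and with a GC offset. All estimates lie right of 0. Filled points have an adjusted p under 0.05. They mark 1 gene without the block, 6 genes with it, 2 with RLE scaling and 0 with the GC offset. Of all tested genes, 221, 900, 440 and 632 were called higher in these fits, in that order. RLE scaling moved all genes by a median of 0.093.

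The libraries also differed in how counts followed base composition. The highest GC content in any 100-base window of the 9 transcripts was 54% to 64%. At those GC contents the fitted trend of a library against GC lay between 0.08 and 0.19 log2 units in KO D2 libraries and between -0.03 and 0.12 in WT D2 libraries. After that trend was removed, the 8 differences ran from 0.08 for Ifit2 to 0.53 for Ifit1bl1 and none was called (edgeR; Ifit1bl1 adjusted p = 0.08, 1 of 8 at an unadjusted p under 0.05; DESeq2, run without the offset, called 3). Among all tested genes, 632 were called higher with the GC offset, and 697 by DESeq2 without it. With the GC offset Ifit1 differed by 0.43 and Ifit3 by 0.47 between KO D2 and WT D2. With the GC offset and the block across days together, Ifit1 differed by 0.44 (adjusted p = 0.14 by edgeR) and Ifit3 by 0.47 (adjusted p = 0.12).

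At D0 the genotypes were close. None of the 8 genes was called for KO against WT at D0, beside 0.0948% of all tested genes called higher and 0.0583% called lower (edgeR, 0 of 8 also at an unadjusted p under 0.05, and 0 of 8 by DESeq2). The estimates ran from -0.39 for Ifi44 to 0.16 for Ifi27, with a median of -0.004 beside 0.02 for all tested genes. Ifit1 averaged 10.1 ± 1.86 CPM in KO D0 (SD, n = 3) and 10.2 ± 2.74 CPM in WT D0 (SD, n = 2), and Ifit3 averaged 13.6 ± 2.02 CPM in KO D0 and 13.5 ± 1.79 CPM in WT D0. Ifi44 averaged 3.19 ± 0.65 CPM in KO D0 and 4.18 ± 0.45 CPM in WT D0, with 1 KO library between the 2 WT libraries and the other two below both (unadjusted p = 0.052 by edgeR). The standard errors of the 8 differences were 0.16 to 0.29 log2 units with 2 WT D0 libraries, so the missing calls do not show equal levels.

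The size of the change was also set against genotype. KO minus WT of the log2 change between the days was positive for all 8 genes, and for 46.3% of all tested genes. It ran from 0.17 for Ifi27 to 0.74 for Ifit1bl1, with a median of 0.47 beside -0.04 for all tested genes. That median was 0.27 with the GC offset. It was 0.31 when KO D2 replicate 1 was left out, 0.31 when the second WT library of D2 was left out, and 0.75 when the first was. None of the 8 was called (edgeR; 0.124% of all tested genes were called higher and 5.72% lower). Ifit1bl1 (0.74, SE 0.30, adjusted p = 0.20 by edgeR) and Ifi44 (0.67, SE 0.23, adjusted p = 0.11) were the 2 genes with an unadjusted p under 0.05. DESeq2 called 1 of the 8, Ifi44 (adjusted p = 0.042), where 92 of all tested genes were called higher. With the replicate block within day, 3 of the 8 were called, beside 4.51% of all tested genes called higher: Ifi44 (0.86, adjusted p = 0.0043 by edgeR), Ifit2 (0.52, adjusted p = 0.023) and Ifit1bl1 (0.72, adjusted p = 0.029). With the GC offset alone, and with the GC offset and the block across days together, 0 of the 8 were called by edgeR; in the second of these fits Ifi44 was at 0.45 (adjusted p = 0.13), Ifit1bl1 at 0.64 (adjusted p = 0.15) and Ifit2 at 0.39 (adjusted p = 0.37). With the GC offset alone Ifi44 was at 0.41 and Ifit3b at 0.10, and Ifi44 was the 1 gene with an unadjusted p under 0.05. At D0 the block rests on 2 pairs, which correlated at 0.0275 and 0.41. Samples of unlike number, KO D0 replicate 1 and WT D0 replicate 2, correlated at 0.376. With 2 WT D0 libraries the deviations mirror each other, so these values cannot show pairing at D0. Across the days, KO samples of the same number correlated at 0.0427, 0.011 and 0.104. KO D0 and WT D2 samples of the same number correlated at 0.218, 0.152 and 0.201. WT D0 samples correlated with those of the same number at 0.134 and 0.162 in KO D2 and at 0.00843 and 0.159 in WT D2. Some same-number samples thus deviated together across the days as well. The change of Ifit1bl1 was called in KO cells and not in WT cells, but the difference between the genotypes was called only in the blocked fits without the GC offset.

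The other genes of the response were read from a list of 63 interferon-stimulated genes, of which 61 were tested. At D2 against D0, 56 were higher and 1 lower in KO cells, and 57 higher and 1 lower in WT cells (edgeR). Of all tested genes, 27% were called higher and 34.5% lower in KO cells, and 27.5% and 26% in WT cells. The list had medians of 2.82 and 2.29, beside -0.20 and -0.07 for all tested genes. Usp18, which restrains signalling at IFNAR2, reached 1932 ± 197 CPM in KO D2 and 38.2 ± 3.97 CPM in KO D0, a log2 fold change of 5.66, and 5.57 in WT cells. Oasl1, a regulator of Irf7 translation in mice, rose by 4.81 and 4.64, and Bst2, the tether of budding virions, by 4.57 and 4.40 in KO and WT cells. The Ifi44 change exceeded those of these 3 genes. In KO cells the changes of Ifit3b, Ifit2, Ifi35, Ifit1bl1 and Ifi27 were below the median of the list. Oas1c was the gene called lower, by 0.95 in KO cells and 0.96 in WT cells.

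In KO D2 against WT D2, 10 of the 61 were higher and 1 lower (edgeR; 1.61% and 14.5% of all tested genes), with a median of 0.34, close to the 0.39 of the 8 genes. Oasl2 was at 171.9 ± 4.77 CPM in KO D2 and 114.6 ± 4.16 CPM in WT D2 (SD, n = 3 each), a log2 difference of 0.58 (adjusted p = 0.003). Oas3 differed by 0.54 (adjusted p = 0.016 by edgeR) and Zbp1, a sensor of nucleic acid in the Z form, by 0.44 (adjusted p = 0.016). With the block within day 41 of the 61 were called higher and 3 lower, where 900 of the 13711 tested genes were called higher and 2544 lower. With the GC offset 7 of the 61 were called higher and 1 lower, where 632 of all genes were called higher and 1183 lower. Cmpk2, a mitochondrial nucleotide kinase induced by interferon, went the other way, at 30.4 ± 5.67 CPM in KO D2 and 87.5 ± 9.17 CPM in WT D2 (-1.52, adjusted p = 0.0009 by edgeR). Its transcript reaches a GC content of 78% in its richest window, above the 54% to 64% of the IFIT and IFI44 genes, and its difference was -1.02 with the GC offset. At D0 1 of the 61, Ifi208, was lower in KO cells (-0.79, adjusted p = 0.048 by edgeR). Of all tested genes, 0.0948% were called higher and 0.0583% lower at D0. For the difference of changes Slfn8 was called higher (0.60, adjusted p = 0.049 by edgeR) and Cmpk2 lower (-1.45, adjusted p = 0.037). There 0.124% of all tested genes were called higher and 5.72% lower. With the GC offset 0 of the 61 were called in either direction in both of these comparisons, and with RLE scaling 0 were called at D0. KO and WT cells also carry different CD45 labels, which cannot be told apart from genotype.

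A second list held 34 genes of the type I interferon pathway (ligands, receptors, signalling and regulators), of which 32 were tested. It also holds Ifng, Ifngr1 and Ifngr2, of interferon gamma, and regulators such as Socs1, Socs3 and Ptpn6. At D2 against D0, 16 were higher and 8 lower in KO cells and 15 higher and 7 lower in WT cells (edgeR), beside 27% higher and 34.5% lower of all tested genes in KO cells and 27.5% and 26% in WT cells; Ifna4 and Ifna2, at 0 counts at D0, could only be higher. Among the signalling proteins upstream of the IFIT genes, Stat2 rose by log2 1.81 in KO cells and 1.49 in WT cells, and Irf9 by 1.13 and 0.81. The kinase gene Tyk2 was lower at D2 (-0.59, adjusted p = 0.0065 by edgeR, in KO cells and -0.91, adjusted p = 0.00083, in WT cells). Ifnar1 was not called (-0.19, adjusted p = 0.11 by edgeR, in KO cells and -0.27, adjusted p = 0.061, in WT cells). Tlr7, a receptor for single-stranded RNA, rose by 4.72 and 4.34, and Irf8 by 1.51 and 2.35. Jak1 fell by 2.32 in KO cells and 1.39 in WT cells, and Ifnar2 fell by 2.29 in KO cells and fell by 1.005 in WT cells. The phosphatase gene Ptpn6 fell by 0.79 and 1.04.

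In KO D2 against WT D2, 3 of the 32 were called higher and 7 lower (edgeR), beside 1.61% and 14.5% of all tested genes. Of the 3, Ifna4 and Ifna2 passed the filter on low counts only through KO D2, which leaves Sting1. The receptor gene Ifnar2 and the kinase gene Jak1 were among those lower. Ifnar2 was at 32.2 ± 3.83 CPM in KO D2 and 76.8 ± 15.1 CPM in WT D2 (-1.26, adjusted p = 0.00052). Jak1 was at 460.8 ± 31.9 CPM in KO D2 and 930.1 ± 189.3 CPM in WT D2 (-1.01, adjusted p = 0.00054), and Irf8 at 2915 ± 262 CPM and 4984 ± 664.4 CPM in KO D2 and WT D2 (-0.77, adjusted p = 0.00091; SD, n = 3 each for all of these). The richest windows of these 3 transcripts hold 77% to 79% GC, and with the GC offset the differences were -0.80 for Ifnar2, -0.46 for Jak1 and -0.32 for Irf8, the last no longer called (adjusted p = 0.079 by edgeR). Sting1, the adaptor of cytosolic DNA sensing, was higher in KO D2 (0.42, adjusted p = 0.036 by edgeR; 0.30, adjusted p = 0.26, with the GC offset). For the difference of changes, 0 were higher and 6 lower (edgeR), beside 0.124% and 5.72% of all tested genes. Among the 6 were Ifnar2 (-1.29), Irf8 (-0.84) and Ptpn11 (-1.28). With the GC offset 0 were called in either direction, where 10 of all tested genes were called higher and 138 lower. At D0 none of the 32 was called by edgeR or DESeq2.

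Transcripts of the ligand itself were near the limit of detection. Ifna4 had 89 counts over the 3 KO D2 libraries (0.85 to 2.61 CPM) and 4 counts over the 3 WT D2 libraries, and Ifna2 had 93 counts over the KO D2 libraries and 15 over the WT D2 libraries. Both were at 0 counts in all 5 D0 libraries. Both genes could pass the filter on low counts only through KO D2, the group where they are high, so no test of them is given. Interferon alpha genes are near copies of each other, so the assignment of reads to single genes is uncertain. Ifnb1 had 21 counts over the KO D2 libraries and 2 over the WT D2 libraries and was not tested.

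The tested non-member closest in pattern to a gene was found as the smallest root mean square difference of log2 CPM, centred per gene, over the 11 libraries among the 9348 genes that averaged 5 CPM or more. The Ifi27 pattern was closest to that of Ndufa3, a subunit of respiratory complex I (0.07 log2 units), and that of Ifi35 to Lgals3bp (0.09). Ifit1bl1 was closest to Apobec1 (0.15), Ifit1 to Serpina3f (0.20), Ifit3 to Zbp1 (0.23) and Ifi44 to Ifi204 (0.28). Ifi204, of the same interferon-inducible family as Ifi208, changed by log2 7.38 in KO cells and 6.94 in WT cells between D0 and D2, and Ndufa3 by 0.63 and 0.61.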

How the data were processed

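RNA-seq was analysed from 11 libraries, grouped by title. The authors deposited whole-number counts by Entrez gene. The submitters' processing notes name build mm10, DESeq2 1.22.2, Salmon 0.13.1 (and, in another entry, 13.1), Trimmomatic 0.36 and bcl2fastq 2.20.0.422. Their roles are not stated, and the counts may be rounded estimates. RefSeq symbols (GRCm38.p6) matched 24387 of 24421 genes, leaving 34 with up to 0.0244% of the counts in a library. Transcript lengths and GC content came from 1 GENCODE transcript per gene.

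The test was that of edgeR 4.0.16, run in R 4.3.3 (TMM scaling, filterByExpr, robust quasi-likelihood fit, 4 group means, 7 residual degrees of freedom, 5 contrasts), with Benjamini-Hochberg adjustment over all 13711 genes per contrast and a threshold of 0.05. The procedure was checked on simulated counts. Standard errors came from the F statistic. Alternatives were DESeq2 1.42.0, RLE scaling, other filters, only the compared groups, replicate blocks, a GC offset and leaving out each library. KO and WT samples of the same number at D2 correlated at 0.217, 0.198 and 0.114, which was taken as pairing at D2. The block was thus chosen from the same data that it was used on. KO D0 and WT D2 samples of the same number correlated at 0.218, 0.152 and 0.201, so these values do not single out pairs within D2. At D0 only 2 numbers are shared (0.0275 and 0.41), and 1 pair of unlike number correlated at 0.376. Apart from the statement that each sample is 1 mouse, nothing describes the replicates, and p-values measure the spread between these samples.

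The genes, the lists and the tests were chosen with earlier results of these data known. All 9 genes are named, with their family relatives, their nearest genes, the gene closest in pattern to each, and up to 3 called genes per list, direction and comparison by smallest p. Stat2, Irf9, Tyk2, Ifnar1 and Ifnb1 are named in addition and were chosen after their values were seen. Some genes this rule names are not reported here.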

Additional observations from a re-analysis of the deposited data

How the results depend on the processing

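For D2 against D0, every alternative run other than leaving out a library (the replicate block within day gives no value here) kept the calls of the 8 genes in KO cells and of the 7 in WT cells (except that Ifit3b does not pass the minimum of 5 CPM and has no value there), and Ifit1bl1 in WT cells ran from -0.268 to 0.064 when single libraries were left out. For KO against WT at D2, the count of genes called, 1 in the reported fit, was 0 with no filter, 0 with the GC offset, 2 with RLE scaling, 2 with only the compared groups (Ifi27 and Ifi44), 3 by DESeq2, 3 with the replicate block across days, 1 with that block and the GC offset, 6 with the replicate block within day, and between 0 and 3 when single libraries were left out. Ifit2 then ran from -0.093 (without KO D2 replicate 1) to 0.553 (without WT D2 replicate 1). For the genotype difference of the change, 0 in the reported fit, the count was 0 with the GC offset with or without the block across days, 1 by DESeq2, 2 with the replicate block across days, 3 with the replicate block within day, and 0 to 1 when single libraries were left out (1 without KO D0 replicate 1). For KO against WT at D0, where no gene was called, signs turned around 0: Ifit3 was at -0.017 with no filter, -0.024 with only the compared groups and -0.072 with the replicate block across days, and Ifit1 at 0.004 with a minimum mean of 5 CPM, 0.150 with the replicate block within day, 0.003 with the GC offset and 0.004 with the GC offset and the block together. With single libraries left out, Ifit1 ran from -0.297 to 0.272, Ifit3 from -0.132 to 0.127 and Ifi35 from -0.147 to 0.289. RLE scaling moved the median of all genes by 0.108 for D2 against D0 in KO cells, and the minimum of 5 CPM by -0.137 and -0.127 in KO and WT cells. For KO against WT at D2, RLE scaling and DESeq2 each moved all genes by a median of 0.093. The median of the 8 genes was 0.386 in the reported fit and 0.478 in each of these. Of all genes called for KO against WT at D2, 221 were higher and 1986 lower in the reported fit, 697 and 1958 by DESeq2, 900 and 2544 with the block within day, and 632 and 1183 with the GC offset. The causes were not tested. Depth limits Ifi44l and the interferon genes, which rest on few counts.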
